A study of Mus musculus with 3 samples.

Results

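*Kit* and *Kitl*, a receptor gene and the gene of its ligand, were measured by single-cell RNA-Seq (scRNA-Seq) in the whole lung of 3 wild-type C57BL/6 mice at P14. The 2 genes were taken by symbol from the 28692 genes counted, and they were chosen with their levels in these libraries known, so those levels are given as a description with no test. The mice, numbered 2, 3, and 4, had been kept in room air (RA) from postnatal day 1 to 14, carried no transgene or altered allele, and received no other agent. They form 1 condition, in which each mouse is 1 replicate and cells of a mouse are not. Whole lungs were dissociated to single cells, and what dissociation did to the share of each cell type was not measured.

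KIT is a class III receptor tyrosine kinase, and KITL, also called stem cell factor, is its ligand. KITL is made as a membrane-bound protein that can stay on the surface of the cell that makes it or be shed by proteases. Ligand binding pairs 2 receptors, which phosphorylate each other and recruit PI3K, SRC-family kinases, and the RAS-MAPK cascade. The pair is best known from hematopoietic progenitors, mast cells, melanocytes, and germ cells. In the lung, *Kit* also marks capillary ECs, which are of a general kind that expresses *Aplnr*, the apelin receptor, and of a second kind, also called aerocytes, that expresses *Car4*, a carbonic anhydrase, and *Apln*, the ligand of APLNR.

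*Kit* (ENSMUSG00000005672) spans chr5:75574916-75656722 on the plus strand of mm10, and *Kitl* (ENSMUSG00000019966) spans chr10:100015630-100100416 on the plus strand. GENCODE M21 lists 8 transcripts of *Kit* and 6 of *Kitl*, and no other gene overlaps either one on either strand. Counts at the 3' end do not separate these transcripts, so membrane-bound and more easily shed forms of *Kitl* were not told apart. The nearest protein-coding genes to *Kit* are 2 other receptor tyrosine kinase genes, *Pdgfra* 376701 bases before it and *Kdr* 276105 bases after it. The sequences just before the annotated start of each gene are shown because the transcription factors listed below as regulators bind such regions. They are from RefSeq (GRCm38.p6) on the plus strand, run from chr5:75574737-75574915 for *Kit* and chr10:100015571-100015629 for *Kitl*, and have matches to the ETS core GGAAG in capitals.
Kit: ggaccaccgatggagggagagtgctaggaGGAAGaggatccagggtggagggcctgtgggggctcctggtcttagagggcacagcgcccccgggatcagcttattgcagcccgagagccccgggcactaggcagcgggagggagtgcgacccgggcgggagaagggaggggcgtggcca
Kitl: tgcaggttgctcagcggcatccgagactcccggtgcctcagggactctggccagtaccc
Windows of 300 bases, 250 before and 50 after the RefSeq start, were searched on both strands. They begin with the printed bases, and the RefSeq start lies beyond the end of these. GGAAG matched once in the *Kit* window and 3 times in that of *Kitl*, with 0 of the *Kitl* matches in the printed bases. Of 32851 RefSeq promoters, 71.4% held it. The E-box CANNTG matched once in each gene and was in 72.3% of promoters. AGATAA, a form of the letters bound by GATA factors, matched neither window and was in 11.2% of promoters. ACGTG, a form of those bound by hypoxia-inducible factors, also matched neither window and was in 19.6%. Other forms of these 2 motifs were not searched. A match is a description of the letters and not a measured site.

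The deposited libraries held 9644 cells, against 5677 in the series' own description, and 7642 were kept, those with 200 or more genes and no more than 20% of their unique molecular identifiers (UMIs, 1 per captured transcript) from mitochondrial genes. The kept cells had 20804836 to 23442355 UMIs per mouse. Cells were clustered with *Kit*, *Kitl*, and the genes of their signaling, shedding, and regulator lists left out, so neither gene defined the clusters in which it was measured. The 34 clusters gave 23 named types, and 704 cells in 5 clusters stayed unnamed. The endothelial, epithelial, stromal, and immune classes of a whole lung were each present among them. Among the kept cells, 8 barcodes occurred in more than 1 library, and the 156 cells marked as doublets were kept. Levels are counts-per-million (CPM) of the UMIs summed over the cells of a type in a mouse. CPM values of *Kit* and *Kitl* were not compared with each other.

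*Kit* gave 6015 UMIs in 935 cells, and ECs held 87.3% ± 3.01% of a mouse's *Kit* UMIs (mean ± SD, n = 3 mice) while making up 13.6% ± 3.73% of its cells. *Kitl* gave 7828 UMIs in 1451 cells, of which ECs held 81.3% ± 1.04%. Both genes were thus mostly endothelial RNAs, and each had a different leading capillary subtype. *Kit* was highest in *Aplnr*-type capillary ECs, and *Kitl* was highest in *Car4*-type capillary ECs.

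*Kit* in the 417 *Aplnr*-type capillary ECs was at 877, 856, and 902 CPM in mice 2, 3, and 4, a mean of 878 ± 22.7. These cells held 3706 of the 6015 *Kit* UMIs, and 413 of them had at least 1. The median cell had 7 *Kit* UMIs in each mouse. The range over mice lay above that of every other type, and the nearest one was dividing ECs at 532, 482, and 547 CPM. Next came an EC cluster of low UMI counts at 456 ± 113 CPM and *Car4*-type capillary ECs at 341, 323, and 354 CPM, a mean of 339 ± 15.6. The ranges of dividing and low-UMI ECs overlapped, as did those of low-UMI and *Car4*-type ECs. A mixed EC cluster, with lymphatic and *Aplnr*-type markers, followed at 207 ± 98.9 CPM, just clear of the *Car4*-type ECs. The lymphatic gene *Prox1* was at 167, 0, and 745 CPM there in mice 2, 3, and 4, so the level of this cluster is not that of 1 cell type. Venous-like ECs came next at 117 ± 31.9 CPM, and arterial-like ECs at 88.2 ± 32.4 CPM. Venous-like and arterial-like ECs overlapped, as did each pair of neighbors lower in the order down to club-like cells.

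*Kitl* in the 94 *Car4*-type capillary ECs was at 1774, 2388, and 2530 CPM, a mean of 2231 ± 402, and all 94 cells had a *Kitl* UMI. The median cell had 24, 28, and 29 *Kitl* UMIs in mice 2, 3, and 4. These cells made up 1.23% of all kept cells and held 2632 of the 7828 *Kitl* UMIs. The low-UMI ECs came next at 873, 667, and 1010 CPM, and then the *Aplnr*-type capillary ECs at 437, 568, and 504 CPM, a mean of 503 ± 65.2. These 3 ranges did not overlap with all cells counted. Dividing ECs, at 458 ± 60.0 CPM, overlapped the *Aplnr*-type ECs, also with all cells counted. Pericyte-like cells followed at 348 ± 40.8 and *Col13a1*-type fibroblast-like cells at 219 ± 11.2 CPM, against 210 ± 72.5 in venous-like and 150 ± 27.9 in arterial-like ECs. The mixed EC cluster, with lymphatic and *Aplnr*-type markers, lay between pericyte-like and *Col13a1*-type cells, at 329 ± 237 CPM. Its range of 115 to 583 CPM overlapped both of theirs, which did not overlap each other. In this mixed cluster, cells with a *Kitl* UMI had a mean of 3.36 lymphatic marker UMIs, against 69.2 in cells without one. For *Aplnr*-type markers the means were 60.4 and 18.3 UMIs, respectively. From *Col13a1*-type cells to arterial-like ECs the ranges of neighbors overlapped.

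**Figure D1:**
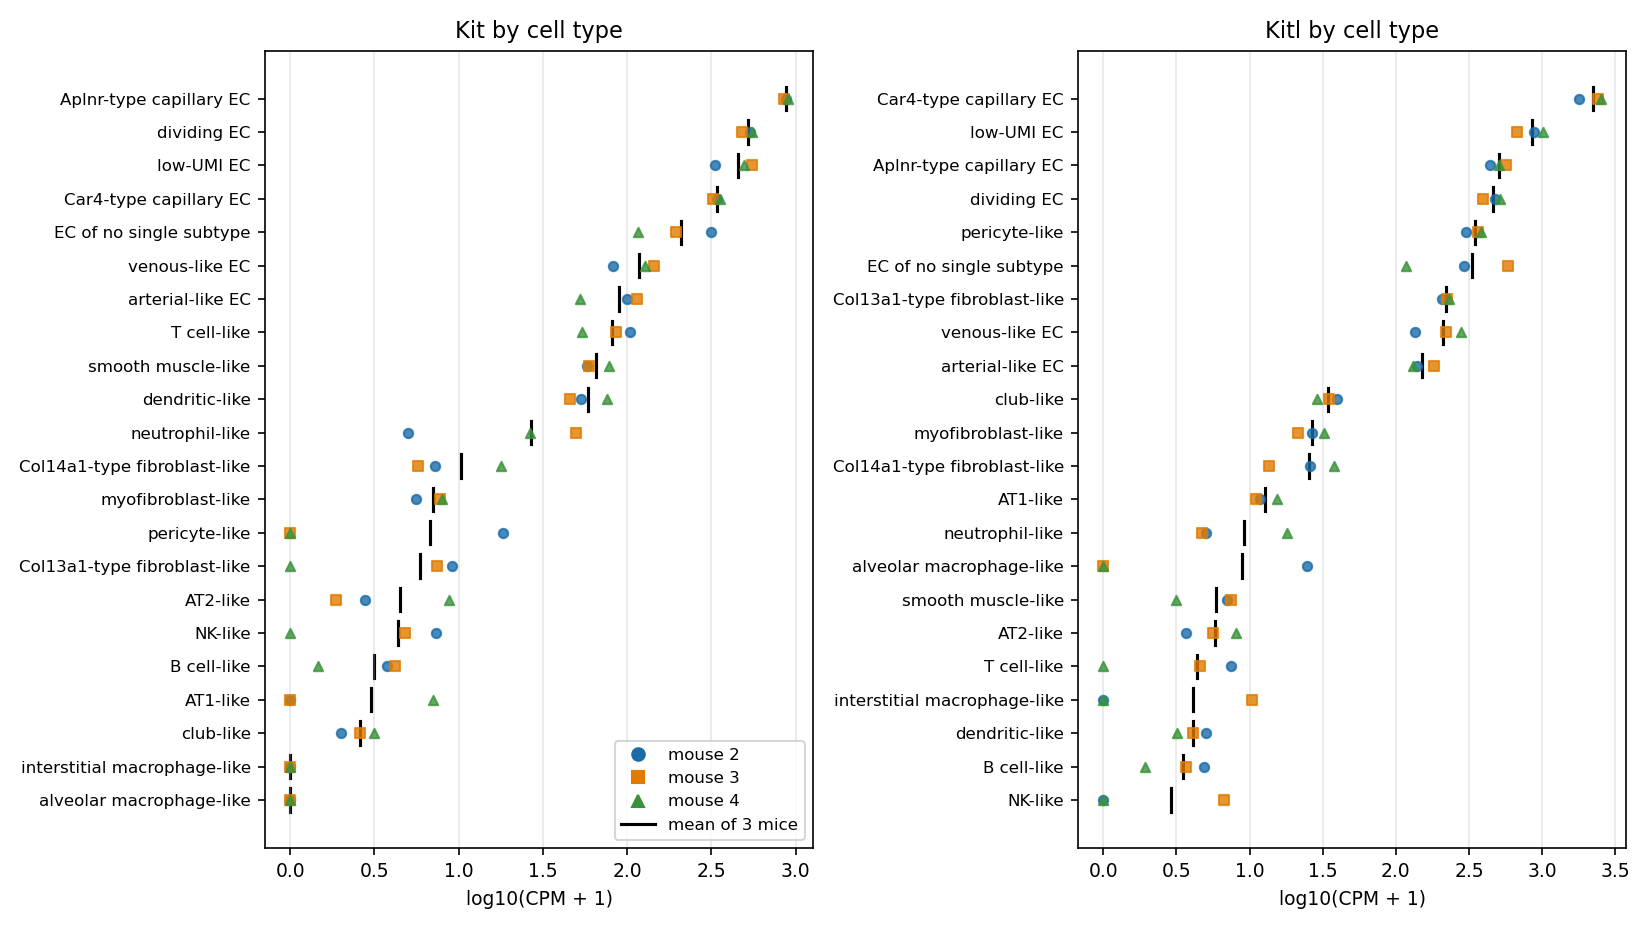
*Kit* (left) and *Kitl* (right) by cell type. Each point is the CPM of 1 mouse on a log10(CPM + 1) axis. *Kit* is highest in *Aplnr*-type capillary ECs (856 to 902 CPM), and *Kitl* is highest in *Car4*-type capillary ECs (1774 to 2530 CPM).

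B-cell-like cells and AT2-like cells, which are not known as sources of *Kit*, give a level that free RNA and stray cells reached there. Types with fewer cells could lie higher from marked doublets alone, such as pericyte-like cells of mouse 2 at 17.2 CPM. *Kit* was at 2.76, 3.19, and 0.462 CPM in B-cell-like cells and at 1.79, 0.877, and 7.73 CPM in AT2-like cells, where 58 of 67 *Kit* UMIs were in cells marked as doublets. For *Kitl* the corresponding levels were 2.48 ± 1.48 CPM in B-cell-like cells and 8.22 ± 7.5 CPM in neutrophil-like cells. A *Kit* UMI was found in 12 of 1784 B-cell-like cells, whose median depth was 3840 to 4152 UMIs in the 3 mice, against 7673 to 8248 UMIs in *Aplnr*-type ECs. With each cell thinned to 1000 UMIs, 58.3% ± 0.308% of *Aplnr*-type ECs and 0.154% ± 0.134% of B-cell-like cells had a *Kit* UMI. No *Kit* UMI was found in 71 alveolar and 114 interstitial macrophage-like cells, which allows up to 4.23% and 2.63% of cells, respectively, with a UMI at this depth and does not limit the share that expresses the gene.

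Within the *Aplnr*-type capillary ECs, *Kit* differed between the 2 clusters that made up the type. The larger one, of 276 cells, had *Kit* at 993, 953, and 960 CPM, and the other, of 141 cells, had it at 708, 783, and 717 CPM. *Kit* itself was left out of the clustering, and the ranges did not overlap. *Kitl* was at 466 ± 47.2 and 533 ± 91.4 CPM, respectively, with overlapping ranges. *Dll4*, a Notch ligand, went the other way from *Kit*, with 89.3 ± 11.2 CPM in the larger cluster and 348 ± 42.9 CPM in the other. Unlike *Kit*, *Dll4* was not left out of the clustering and is among the leading genes of the smaller cluster. The clustering may thus have sorted cells by it.

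*Kit* in the *Car4*-type cluster was not spread evenly over its cells. A *Kit* UMI was found in 27 of the 94 cells, 9, 10, and 8 of them in mice 2, 3, and 4, and the other 67 cells had none. The 27 cells had a median of 20410 UMIs, against 8362 in the others, and 22 of the 27 had more than 15000 UMIs while none of the 67 did. None of the 94 cells was marked as a doublet.

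The 27 *Kit*-positive cells also carried markers of the *Aplnr* type. Their *Kit* level was 573, 602, and 742 CPM. *Aplnr* was at 499, 488, and 552 CPM in them, against 19.1, 4.90, and 5.41 CPM in the 67 *Kit*-negative cells. *Plvap*, which encodes the diaphragm protein of fenestrae and caveolae, was at 521, 551, and 404 CPM, against 6.38, 0, and 5.41 CPM. *Car4* was at 963, 780, and 973 CPM in the *Kit*-positive cells and at 1583, 2105, and 2223 CPM in the *Kit*-negative ones, and *Ednrb*, the endothelin receptor B gene that marks the same subtype, moved in that direction too. For these 4 genes the ranges of the groups did not overlap. *Kitl* was lower in the *Kit*-positive cells, at 1371, 1569, and 1430 CPM, than in the *Kit*-negative cells, at 2368, 3334, and 3533 CPM. The part of UMI counts per cell, or of droplets that hold cells of both types, in these values was not tested.

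**Figure D2:**
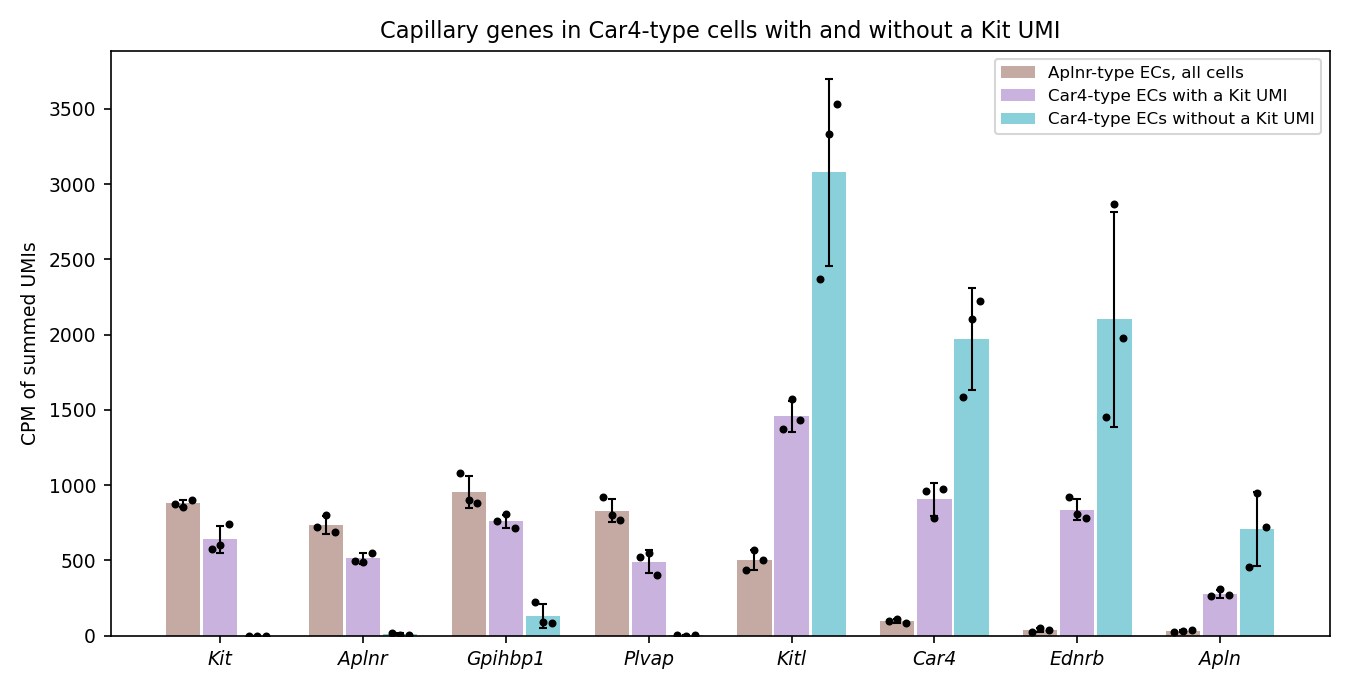
*Kit*, *Kitl*, and marker genes in *Aplnr*-type capillary ECs and in *Car4*-type capillary ECs with and without a *Kit* UMI. Bars show mean CPM ± SD and points the 3 mice. *Aplnr* and *Plvap* are near 0 in the 67 *Car4*-type cells without *Kit* (*Aplnr* at most 19.1 CPM) and higher in the 27 cells with it (*Aplnr* 488 to 552 CPM).

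With cells of more than 15000 UMIs left out, a limit chosen after seeing the data, *Kit* in *Car4*-type ECs fell to 18.3, 50.6, and 35.5 CPM, a mean of 34.8 ± 16.2, with 5 of 72 cells positive. *Kitl* in the same cells was then at 2403, 3336, and 3486 CPM, a mean of 3075 ± 587. *Kit* in *Aplnr*-type ECs was at 933 ± 20.8 and *Kitl* at 475 ± 69.0 CPM with the same limit. Dividing ECs then had *Kitl* at 224, 214, and 305 CPM, below the *Aplnr*-type range of 407 to 545 CPM. Their *Kit* was at 533, 604, and 542 CPM. Among cells above the limit, *Kit* was at 658 ± 89.5 CPM in the 22 *Car4*-type cells and at 788 ± 77.7 CPM in the 62 *Aplnr*-type cells, and these ranges overlapped. With the limit, arterial-like ECs had *Kit* at 117, 128, and 67.7 CPM and venous-like ECs at 9.36, 67.5, and 38.7 CPM. *Car4*-type ECs then lay below the arterial-like range and overlapped the venous-like one, so their place in the order rested on their largest cells.

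The low-UMI EC cluster showed the same split. Its 68 cells without *Kit* had a median of 841 UMIs, with *Kitl* at 1530, 2361, and 3111 CPM, *Car4* at 794, 1399, and 1429 CPM, and no *Aplnr* UMI. Its 16 cells with *Kit* had a median of 36092.5 UMIs, and 7 of them were marked as doublets. In its 71 cells of at most 15000 UMIs, *Kit* was at 110, 106, and 0 CPM, a mean of 72.1 ± 62.5, and *Kitl* at 1633, 1800, and 3111 CPM. The 13 larger cells held 308 of its 315 *Kit* UMIs and 431 of its 613 *Kitl* UMIs. The place of the cluster in the *Kit* order thus rested on those 13 cells. Its mean *Kitl* with the limit, 2181 ± 809 CPM, still lay between those of the *Car4*-type and *Aplnr*-type ECs. Its *Kitl* range then overlapped that of the *Car4*-type ECs. The cluster stayed unnamed below the EC class because of its depth.

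**Figure D3:**
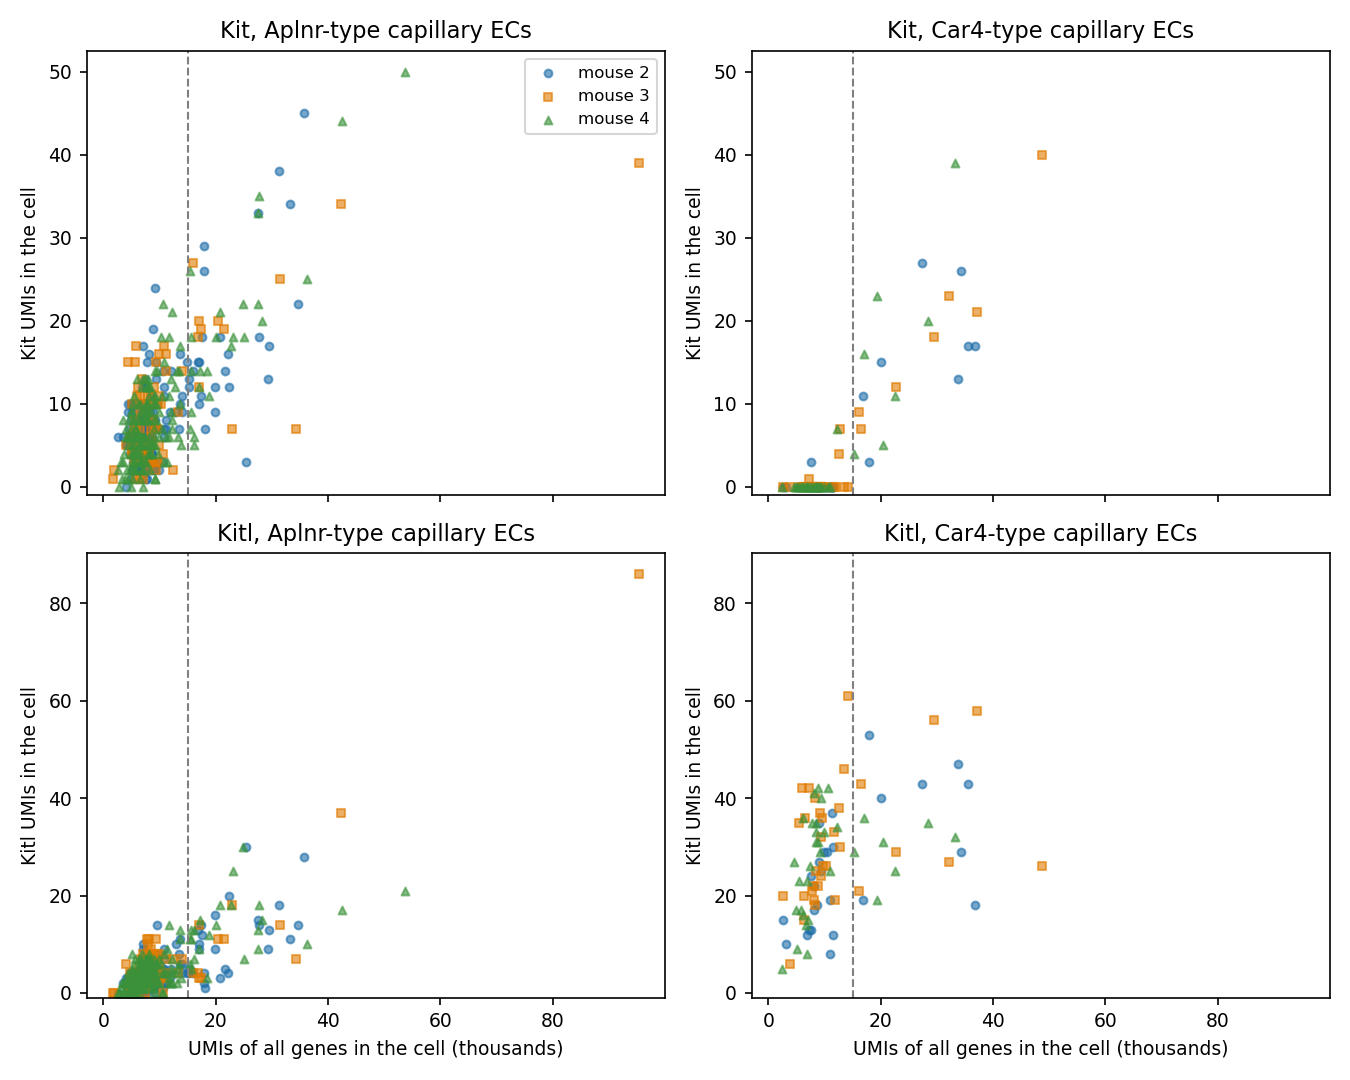
UMIs of *Kit* (top) and *Kitl* (bottom) in each capillary EC against the cell's total UMIs. Points are cells of the *Aplnr* type (left panels) and the *Car4* type (right panels), and the dashed line marks 15000 UMIs. Of the 72 *Car4*-type cells left of the line 5 have a *Kit* UMI, and right of it 22 of 22 do.

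Receptor and ligand were found in the same cells in the *Aplnr* type. Of 417 cells, 379 had both RNAs, 34 had *Kit* alone, 3 had *Kitl* alone, and 1 had neither. Thinned to 2000 UMIs per cell, 200 of 415 cells had both, against 194.7 if the genes were detected independently within each mouse. In the *Car4* type all 94 cells had a *Kitl* UMI, so no cell could have *Kit* alone. The 27 cells with *Kit* thus had both, and 67 had *Kitl* alone. With cells of more than 15000 UMIs left out, 5 of 72 *Car4*-type cells had both.

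In larger vessels both genes were lower and unevenly spread. The arterial-like ECs came in 2 clusters. One, of 99 cells, had *Kit* at 156, 233, and 112 CPM, and the other, of 60 cells, at 5.13, 0, and 0 CPM, no higher than in AT2-like cells. *Kitl* was present in both, at 189 ± 35.1 and 104 ± 32.6 CPM. The first of these clusters had higher *Cxcl12*, a chemokine gene of arterial ECs, at 5249 ± 1079 CPM against 1011 ± 290. Other arterial markers differed from this. *Bmx* was lower in the first cluster, at 220 ± 46.1 against 468 ± 92.2 CPM, and *Gja5* overlapped, at 810 ± 317 against 756 ± 97.8. *Aplnr* was higher in the first cluster, at 195 ± 66.2 against 45.1 ± 10.5 CPM. Of the 106 venous-like ECs, 27 had a *Kit* UMI, and 63 of their 149 *Kit* UMIs were in 3 cells.

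Outside the endothelium, *Kit* was above background in smooth muscle-like, dendritic-like, and part of the T-cell-like cells. Lower levels in 2 other groups also exceeded those of both background types in each mouse, which does not exclude stray cells or doublets. Neutrophil-like cells exceeded them too, with 34 of their 36 *Kit* UMIs in marked doublets. The myofibroblast-like cluster of 451 cells had *Kit* at 5.49, 14.8, and 11.6 CPM. *Col14a1*-type fibroblast-like cells had it at 6.24, 4.72, and 16.8 CPM, from 12 UMIs in all. Of these UMIs 9 were in 3 cells, and 1 was in the 23 cells of the type without any endothelial marker UMI. Smooth muscle-like cells, which express *Acta2* and *Myh11*, had *Kit* at 57.0, 58.6, and 77.2 CPM, with 267 UMIs in 123 of 290 cells and at most 9 in 1 cell. Of these UMIs, 197 were in the 209 cells without any UMI of 6 endothelial markers, and none was in a marked doublet. *Acta2* was at 10439 ± 2135 CPM in the cells with a *Kit* UMI and at 10439 ± 760 CPM in those without. Of the other smooth muscle markers, *Des* was higher with *Kit* in 3 of 3 mice, at 736 ± 103 against 639 ± 52.4 CPM. *Cnn1* was higher in 0 of 3, at 420 ± 117 against 496 ± 29.0 CPM, and *Myh11* and *Actg2* each in 1 of 3. No UMI of the mast cell markers was found in cells with or without *Kit*. *Kitl* in smooth muscle-like cells was at 4.86 ± 2.38 CPM, within the range of its background.

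Dendritic-like cells had *Kit* at 52.2, 44.9, and 75 CPM, with 89 UMIs in 47 of 183 cells. Cells with a *Kit* UMI had higher *Xcr1*, *Clec9a*, and *Itgae*, genes of the cross-presenting kind of dendritic cell, in 3 of 3 mice. *Xcr1* was at 315 ± 150 CPM in them against 77.6 ± 34.8, *Clec9a* at 414 ± 111 against 94.3 ± 30.8, and *Itgae* at 248 ± 25.7 against 87.3 ± 38.0. *Flt3*, a receptor of the same family as *Kit*, was also higher in 3 of 3 mice, at 300 ± 79.3 against 174 ± 12.7 CPM. *Cd209a* and *Ccl22*, genes of other dendritic cells, were lower in 3 of 3 mice, at 52.5 ± 47.8 against 444 ± 121 CPM and at 11.7 ± 20.2 against 822 ± 352 CPM. These cells were split by *Kit* without thinning, and the median depth was 10624 UMIs with *Kit* and 6846.5 without.

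In the T-cell-like cluster, *Kit* was at 104, 84.9, and 53.2 CPM and went with markers of group 2 innate lymphoid cells (ILC2). The 62 cells with more UMIs of ILC2 markers than of T cell markers held 99 of the cluster's 102 *Kit* UMIs, and 30 of the 62 were positive. Their *Kit* level was 207, 280, and 162 CPM in the 3 mice. Of the other 142 cells, 2 were positive. At a finer clustering resolution of 1.2 these cells separated into an ILC2-like cluster of 66 cells, with *Kit* at 213 ± 65.3 CPM, and a T-cell-like cluster of 138 cells with no *Kit* UMI, which allows up to 2.17% of cells with a UMI at this depth.

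Mast cells, which depend on KIT, formed no cluster. Only 3 kept cells had at least 20 UMIs of the mast cell markers *Cpa3*, *Mcpt4*, *Cma1*, *Tpsb2*, and *Mrgprb1*. One, in the neutrophil-like cluster of mouse 3 and marked as a doublet, had 1878 such UMIs and 24 *Kit* UMIs, and it held 24 of the 36 *Kit* UMIs of the 467 neutrophil-like cells. Another, in the basophil-like cluster of mouse 4, had 28 mast cell marker UMIs and 11 *Kit* UMIs, the only ones among 44 basophil-like cells. The third, basophil-like in mouse 2, had 134 UMIs of *Mcpt8*, a basophil protease, and no *Kit* UMI.

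Outside the endothelium, *Kitl* was highest in pericyte-like and *Col13a1*-type fibroblast-like cells. In pericyte-like cells, marked by *Higd1b*, *Postn*, and *Pdgfrb*, *Kitl* was at 301, 363, and 379 CPM, and 85 of 134 cells were positive. Of the 263 UMIs, 178 were in cells without a UMI of the endothelial markers. *Col13a1*-type fibroblast-like cells had 207, 222, and 228 CPM, and 141 of 210 cells were positive. Of their 495 UMIs, 248 were in cells without a UMI of the endothelial markers. Positive cells had a mean of 3.96 endothelial marker UMIs and a median depth of 14964 UMIs, against 0.391 and 1088 in the negative cells, and the part of this in the level was not tested. Other mesenchymal and airway types were lower. Myofibroblast-like cells were at 25.8 ± 5.49 CPM, and their clusters differed, with 46.5, 30.6, and 50.5 CPM in 357 cells and 11.5, 7.91, and 13.7 CPM in 451 cells. *Col14a1*-type fibroblast-like cells were at 24.7 ± 11.9 and club-like cells at 33.4 ± 5.38 CPM. *Kit* in pericyte-like and *Col13a1*-type cells was at 5.74 ± 9.94 and 4.87 ± 4.30 CPM, and 6 of its 6 UMIs in the former and 10 of 11 in the latter were in marked doublets.

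The unnamed clusters held 161 *Kitl* and 55 *Kit* UMIs. In 456 of these cells, a cluster led by *Hpgd*, *Sox7*, and *Epas1* whose median depth was 843.5 UMIs, *Kitl* was at 271, 237, and 249 CPM and *Kit* at 40.9, 114, and 62.3 CPM. Only 75 of the 456 cells had no UMI of the endothelial markers, and their median mitochondrial share was low, at 0.569% for the cluster. Most of the cluster thus held endothelial RNA, but the unnamed cells are not counted among the ECs above.

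The genes most like *Kit* and *Kitl* over types were mostly endothelial. Over 22 types with at least 10 cells in each mouse, the 10 genes with the highest Pearson r to *Kit*, of 12555, were *Gdpd5* (r = 0.894), *Ccdc85a*, *Prdm8*, *Sox7*, *Pcbp3*, *Bcl6b*, *Ccdc85b*, *Kif26a*, *Tspan18*, and *Tnfsf10* (r = 0.878). *Sox7* encodes an endothelial transcription factor, and *Tnfsf10* the death ligand TRAIL. For *Kitl* they were *Tmem100* (r = 0.942), *Dach1*, *Tmcc2*, *Scn7a*, *Mboat2*, *Ddah1*, *Piezo2*, *Dok4*, *Slc16a9*, and 1810011O10Rik (r = 0.919). *Tmem100* is a target of BMP signaling in ECs, *Dach1* a transcription factor gene of growing vessels, and *Piezo2* a mechanosensitive channel gene. These genes did not all share the leading capillary subtype of *Kit* or *Kitl*. *Tmem100*, *Mboat2*, and 1810011O10Rik were highest in *Aplnr*-type ECs, and *Pcbp3* and *Tspan18* in *Car4*-type ECs. *Tnfsf10* was highest in venous-like ECs, and *Bcl6b*, *Ccdc85b*, and *Dok4* in the mixed EC cluster. The types share libraries and differ in depth, and 7 of them are kinds of EC, so r describes how levels vary together over types and carries no p. All cells were counted, so r for *Kit* includes the *Car4*-type and low-UMI EC levels that rested on their largest cells.

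The genes through which KIT signals, fixed as lists with earlier results of these data known, were compared between *Aplnr*-type and *Car4*-type capillary ECs in sums per mouse (edgeR's quasi-likelihood test, Benjamini-Hochberg adjustment over all genes). Of 8250 genes tested, 945 (11.5%) were called, 421 (5.10%) higher and 524 (6.35%) lower in the *Aplnr* type. Both groups were clustered from the same cells, so these p-values are smaller than those of groups defined independently. Log2 changes are *Aplnr*-type minus *Car4*-type, and their median over all genes was 0.01. All cells were counted, so the *Car4*-type sums include the 27 *Kit*-positive cells that also carried *Aplnr*-type markers. The calls without cells of more than 15000 UMIs are given below.

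Of 46 signaling genes 36 were tested, and 7 (19.4%) were called, 2 higher and 5 lower in the *Aplnr* type, with a median log2 change of −0.05. *Spred1* and *Spred2*, which encode inhibitors of RAS-MAPK signaling that bind KIT's pathway, were both lower. *Spred2* was at 19.9, 23.4, and 19.4 CPM in *Aplnr*-type and 74.9, 107, and 87.7 CPM in *Car4*-type ECs, a log2 change of −2.15 (SE 0.25, adjusted p = 1.79e-08). *Spred1* changed by −1.36 (SE 0.19, adjusted p = 8.75e-07). *Dok1*, an adaptor that dampens kinase signaling, was at −1.40, *Pik3cb*, a PI3K catalytic subunit, at −1.21, and *Lyn*, a SRC-family kinase, at −0.78. The genes higher in the *Aplnr* type were *Yes1*, another SRC-family kinase, at 0.86 (SE 0.16, adjusted p = 0.000155), and *Pik3r1*, the PI3K regulatory subunit that binds KIT, at 0.59 (SE 0.18, adjusted p = 0.0268). The call of *Pik3r1* was lost with DESeq2 and without mouse 2 or 4, and that of *Dok1* without mouse 2. *Grb2*, *Cbl*, and *Ptpn11*, which carry or end the signal, were within 0.35 of 0 and were not called. *Hras*, a RAS gene, was called with the mouse as a block (log2 change −0.50, adjusted p = 0.0434) but not without it (adjusted p = 0.067, edgeR).

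Of the shedding genes 5 of 7 were tested. *Timp3*, an inhibitor of the proteases ADAM10 and ADAM17, was at 169, 161, and 121 CPM in *Aplnr*-type and 842, 732, and 798 CPM in *Car4*-type ECs, a log2 change of −2.43 (SE 0.20, adjusted p = 1.69e-10), and the groups did not overlap. The sheddases themselves were not called. *Adam10* changed by −0.38 and *Adam17* by −0.00 (adjusted p = 0.135 and 1.00, edgeR). *Mmp9*, a protease known to release KITL, was highest in neutrophil-like cells at 1621 ± 165 CPM.

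Of 15 regulators 11 were tested, and 3 (27.3%) were called, with a median log2 change of 0.35. *Gata3* was higher in the *Aplnr* type at 1.14 (SE 0.31, adjusted p = 0.00835) and *Erg*, an ETS factor of ECs, at 0.67 (SE 0.17, adjusted p = 0.00586). *Lmo2*, a partner of TAL1 and GATA factors, was lower at −0.56 (SE 0.17, adjusted p = 0.0251). Each of these 3 calls was lost when mouse 4 was left out, that of *Gata3* also without mouse 3 and that of *Lmo2* also without mouse 2. *Gata2*, at 310 ± 5.67 and 376 ± 9.49 CPM, was not called (log2 change −0.31, adjusted p = 0.177). *Fli1*, another ETS factor gene, was called with the mouse as a block (log2 change 0.50, adjusted p = 0.043) but not without it (adjusted p = 0.0503, edgeR). Outside ECs, *Gata2* gave 2 UMIs in the *Kit*-positive smooth muscle-like type, and *Gata3* was at 462 ± 61.1 CPM in T-cell-like cells, where it is also one of the ILC2 markers.

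Of the receptor family and its ligands 6 of 11 were tested, and 2 (33.3%) were called. These genes were not left out of the clustering. *Pdgfb* and *Pdgfd*, ligands of the pericyte receptor PDGFRB, were lower in the *Aplnr* type by log2 changes of −0.53 and −0.98. Both had their highest mean of all types in *Car4*-type ECs. For *Pdgfd* the range there, 59.4 to 80.1 CPM, overlapped that of arterial-like ECs, 38.7 to 61.4 CPM. The call of *Pdgfb* was lost with DESeq2, with library sizes alone, and without each mouse in turn. *Pdgfrb* was highest in pericyte-like cells at 3337 ± 286 CPM, *Csf1r* in interstitial macrophage-like cells at 1094 ± 341, and *Flt3* in dendritic-like cells at 214 ± 26.6 CPM. *Csf1r* and *Flt3* are among the markers by which those 2 types were named, so their peaks there follow in part from the naming.

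With cells of more than 15000 UMIs left out, all 13 of these calls held. When the low-UMI ECs were also joined to the *Car4* type, 12 held, and *Dok1* was no longer among the genes tested. Without the join, 1349 of 5218 genes (25.9%) were called, against 11.5% with all cells. The regulators called were then 6 of 10 tested instead of 3 of 11, with *Ets1*, *Fli1*, and *Epas1* also higher in the *Aplnr* type. The signaling genes called were 10 of 29 tested instead of 7 of 36.

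**Figure D4:**
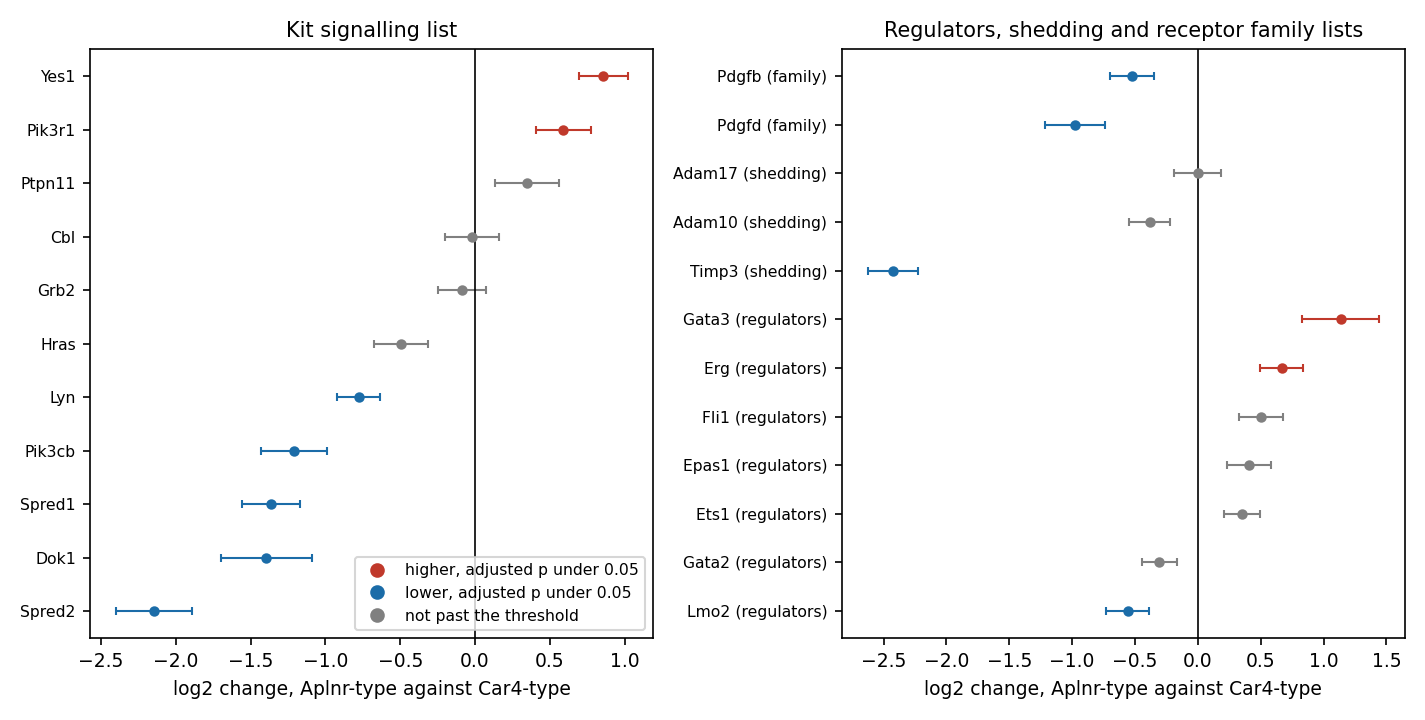
Log2 change between *Aplnr*-type and *Car4*-type capillary ECs for 23 genes of the 4 lists, the 13 called and 10 others named in the text. Points are edgeR estimates with SE, positive values are higher in the *Aplnr* type, and the genes called are colored. *Timp3* (−2.43) and *Spred2* (−2.15) lie farthest below 0.

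*Aplnr*-type capillary ECs with a *Kit* UMI were compared with those without one after each cell was thinned to 2000 UMIs, which left 128, 64, and 145 cells with *Kit* and 30, 17, and 31 without in mice 2, 3, and 4. At full depth 413 of the 417 cells had a *Kit* UMI, so nearly all cells without one here had lost it in the thinning, and the groups differ little by construction. A low count of calls therefore says nothing about how *Kit* relates to other genes. Of 2050 genes tested, 3 (0.146%) were called by edgeR. *Slc6a6*, the taurine transporter gene, was the 1 gene (0.0488% of those tested) higher in cells with *Kit*, at 740 ± 38.1 against 379 ± 63.4 CPM. Gm26870, at 139 ± 32.0 against 355 ± 178 CPM, and *Tax1bp1*, at 330 ± 44.9 against 596 ± 32.4 CPM, were the 2 (0.0976%) that were lower. DESeq2 called 0 genes, with 58 at an unadjusted p under 0.05 against 161 for edgeR. None of the 3 genes was called in 5 other random thinnings, which called 3, 1, 0, 0, and 0 genes, so which genes are called rested on the draw. The same comparison for *Kitl* in *Car4*-type ECs was not run, since 1, 0, and 1 cells were without a *Kitl* UMI at that depth.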

How the data were processed

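The labels give a C57BL/6 strain and an age of P14 for each mouse, and 10x v3 3' libraries. Per the labels, each library was counted with Cell Ranger 3.0.2 on mm10, and the authors deposited whole-number UMI counts for each gene in each cell, not normalized. The annotation used for counting and the handling of multimapped reads are not given in the sources used here.

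*Kit*, *Kitl*, and the gene lists were chosen with earlier results of these data known. Thresholds for naming were set with the clusters in view. Kept cells were merged, normalized with SCTransform, and clustered at resolution 0.8 with 30 principal components (Seurat 5.3.0, sctransform 0.4.2, R 4.3.3), with *Kit*, *Kitl*, and the signaling, shedding, and regulator genes left out of the variable genes (70 genes). ECs were clustered again on 20 components. A cluster was named from the marker list with the highest mean log2 fold, of at least 1 with at least 3 markers detected. Doublets were scored by simulation, and marked doublets (0.8% for each 1000 cells, from the top of the scores) were kept. The cell-level filter and depth are in the text, with a median of 6033.5 UMIs per kept cell, and no library was a copy of another (chi-square divided by its degrees of freedom, 10.4 to 44.2).

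Counts were summed per mouse and type and tested with edgeR 4.0.16 (quasi-likelihood test with robust dispersion, TMM, filterByExpr, Benjamini-Hochberg adjustment, threshold 0.05), with all EC subtypes in 1 fit. SE is the size of the log2 change divided by the square root of F. DESeq2 1.42.0 was an alternative. The others were other cell and low-count filters, log-normalized values, other resolutions, doublets removed, thinning, library sizes alone, each mouse left out, and settings chosen after seeing the data, namely a limit of 15000 UMIs per cell, joining the low-UMI ECs to the *Car4* type, and 5 other random thinnings. The sums of a mouse share an animal. Their deviations from group means correlated with r = 0.18, 0.10, and 0.19 between the capillary types, so the mouse was also fitted as a block. The tests were tested on simulated data. Zero limits are 3 counts, and they and thinned shares cover counting error only. Genes were named if they belong to a list and passed a test, were among the 10 most like *Kit* or *Kitl* by Pearson r on log2(CPM + 10) over genes with at least 200 UMIs, were called in the comparison by *Kit* UMIs, or lead a named type. Other genes were chosen after their values were seen. Some items are not reported here.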

Additional observations from a re-analysis of the deposited data

How the results depend on the processing

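With each mouse left out in turn, *Kit* was at 867 to 889 CPM in *Aplnr*-type and 332 to 347 CPM in *Car4*-type ECs, and *Kitl* was at 471 to 536 and 2081 to 2459 CPM, respectively. Types with few UMIs of a gene could rest on 1 mouse, as in pericyte-like cells, where *Kit* was found in mouse 2 alone. Other settings moved levels by more than the SD between mice. *Kit* in *Aplnr*-type ECs was 806 CPM from log-normalized values and 933 CPM without cells over 15000 UMIs. *Kit* in *Car4*-type ECs was 297 CPM with the stricter cell filter (500 genes, 10% mitochondrial UMIs), 318 with doublets removed, 70.8 from log-normalized values, 34.8 without cells over 15000 UMIs, and 41.5 with the low-UMI ECs joined as well. *Kitl* in *Aplnr*-type ECs was 376 CPM from log-normalized values, and in *Car4*-type ECs it was 3075 CPM without cells over 15000 UMIs and 2968 with the low-UMI ECs joined as well. Shares of cells with a UMI depended on depth. Thinned to 1000 and 2000 UMIs, the share with *Kit* was 58.3% and 80.2% in *Aplnr*-type and 12.5% and 19.3% in *Car4*-type ECs, against 99.2% and 29.0% unthinned, and the share with *Kitl* was 36.3% and 58.2% and 88.3% and 97.1%. Without cells over 15000 UMIs, 6.74% of *Car4*-type ECs had *Kit* and 90.1% of *Aplnr*-type ECs had *Kitl*. Cells with both RNAs were 48.7% of *Aplnr*-type and 19.4% of *Car4*-type ECs thinned to 2000 UMIs, and 89.5% and 6.74% without cells over 15000 UMIs.

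The 945 genes called between capillary types became 550 to 629 with each mouse left out, where fewer samples enter, and 1456 with cells over 15000 UMIs left out and the low-UMI ECs joined. With the mouse as a block, 999 genes were called, *Fli1* and *Hras* were called in addition, and the block changed no other call of a list gene. The 3 genes called by *Kit* UMIs became 0 with DESeq2, 1 when thinned to 3000 UMIs, 0 to 13 with each mouse left out, and 3, 1, 0, 0, and 0 in the other thinnings, and stayed 3 with the block. The log2 change of Gm26870 turned to 0.80 with doublets removed and to 0.88 and 0.21 in 2 other thinnings, and that of *Slc6a6* to −0.018 and −0.0048 in 2. The cause of these shifts was not tested. Beside these, 57 values of the levels and counts moved by less than the spread or stayed within 1.5 times. Among single genes and other types, 244 values stayed, 17 moved, and 39 kept their direction but lost the call. Depth limits what is said of types with few cells, such as the 44 basophil-like cells.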
